A study of Danio rerio with 6 samples.

Results

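The genes described here are the glutamate receptor genes of the zebrafish eye, chosen by the form of their symbol (gria, grik, grin1 to grin3, grid or grm followed by a digit). The rule finds 21 of the 14781 genes in the deposited table: among them 8 AMPA, 1 kainate and 3 NMDA receptor genes, metabotropic receptor genes, and grid2ipb. The last encodes a synaptic scaffold protein and not a receptor. RefSeq (assembly GRCz12tu) holds 46 symbols of this form, so 25 beside the members were not analysed under this rule. Each of the 21 members has a RefSeq match, and 0 of them lie on the chromosome of samd7.

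RNA was measured in whole eyes of 6 larvae at 5 days post fertilization (dpf), 3 wild type (WT) and 3 homozygous for the samd7 allele stl888 (samd7-/-), all offspring of heterozygous parents. The eyes of a single larva made up each library, so replicates are separate animals. Photoreceptors make the samd7 product, a chromatin protein with a SAM domain that belongs to the Polycomb repressors. Eyes were taken whole, with lens and surface tissue, and in such samples fewer cells of a type and less RNA per cell cannot be told apart.

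Photoreceptors release glutamate in the dark and stop in light. OFF bipolar and horizontal cells read that signal with AMPA and kainate receptors, which are cation channels, while ON bipolar cells read it with mGluR6, a G protein coupled receptor whose activation closes the cation channel TRPM1. Bipolar cells in turn release glutamate onto amacrine and ganglion cells, which carry AMPA and NMDA receptors. Many receptor genes are duplicated in zebrafish, with the copies named a and b.

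The libraries held 23185755 to 26672265 reads assigned to genes. The members took 0.0312% of these in WT 1, 0.0471% in WT 2 and 0.0504% in WT 3, and 0.0552%, 0.0528% and 0.0544% in samd7-/- 1, 2 and 3. WT 1 thus stood apart from the other WT larvae for these genes before any comparison of genotypes. It was the lowest of the 3 WT larvae for 18 of the 20 members tested, against 39.2% of all 11959 genes tested. With the samd7-/- larvae included, WT 1 was the lowest of the 6 libraries for 17 of the 20, against 28.3% of all genes tested. The mutated gene itself, which checks the labels only in part since the lesion is not described, held 1813, 1587 and 1931 normalized counts in the WT larvae against 4691, 4070 and 4479 in the mutants (samd7, adjusted p = 0.00491). Values below are normalized read counts, that is, reads divided by a size factor per library. They are not divided by gene length, so they are compared between larvae and not between genes.

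No glutamate receptor gene differed between the genotypes at an adjusted p under 0.05. Of 20 members tested with limma, 0 rose and 0 fell, and adjusted p ran from 0.663 to 0.972; over all genes tested, 36 of 11959 (0.301%) passed. At an unadjusted p under 0.05 there was 1 member, gria3b, where 6.33% of all genes reached it. DESeq2 and edgeR on recovered reads also called 0 members, where they called 0.652% and 0.284% of all genes. Each had 1 member at an unadjusted p under 0.05, which 5.82% and 6.41% of all genes reached. The test left out 1 member, which did not reach 10 normalized counts in 3 libraries.

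The fold changes of the tested members were positive with all larvae. For 18 of these 20 they were lower without WT 1. That count follows from WT 1 being the lowest of the WT larvae for the same 18, so it is no separate result. All 20 tested members had a log2 fold change (samd7-/- relative to WT, of values with 1 added) above 0, with a median of 0.31, while 50.1% of all genes had one above 0 and their median was 0.00. With WT 1 left out, 13 members were positive and 7 negative, and the median was 0.04 (50.2% of all genes were positive in that fit). Leaving out another WT larva moved the median the other way. It was 0.49 without WT 2 (20 of 20 positive) and 0.46 without WT 3 (19 of 19). Without samd7-/- 1, 2 or 3 it was 0.32, 0.34 or 0.36. Of the tested members only gria3b and grin2bb had a log2 fold change above 1, and without WT 1 these were 0.83 and 1.11. Over all 21 members the mean was higher in samd7-/- for 19 and lower for 2. The genotypes did not overlap for 4 of the 20 tested members, each time with samd7-/- higher (gria3b, gria1b, grin1b and grin2bb). Among all genes tested, 6.66% did so in that direction.

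**Figure D1:**
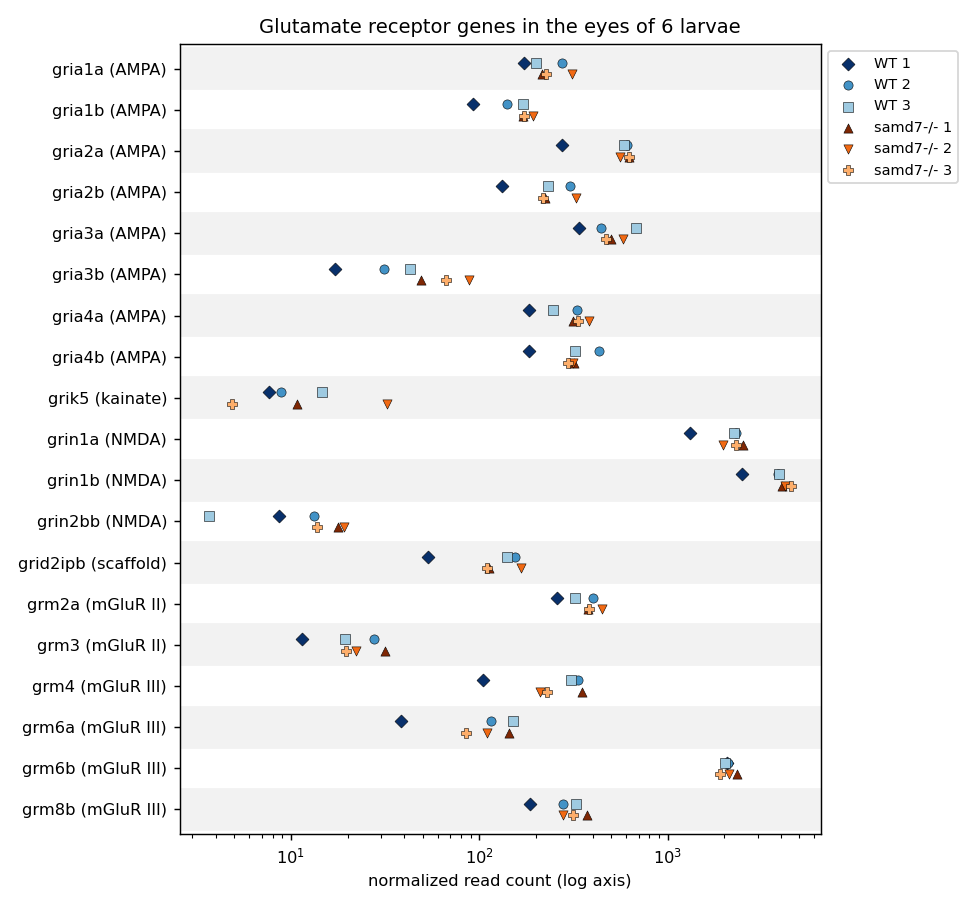
Normalized read counts of 19 members (log axis) in each of the 6 larvae, by receptor family; each point is 1 larva. WT 1 (dark blue diamond) is the leftmost point for 16 of them, and grm6b is the member whose 3 WT larvae lie closest together.

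**Figure D2:**
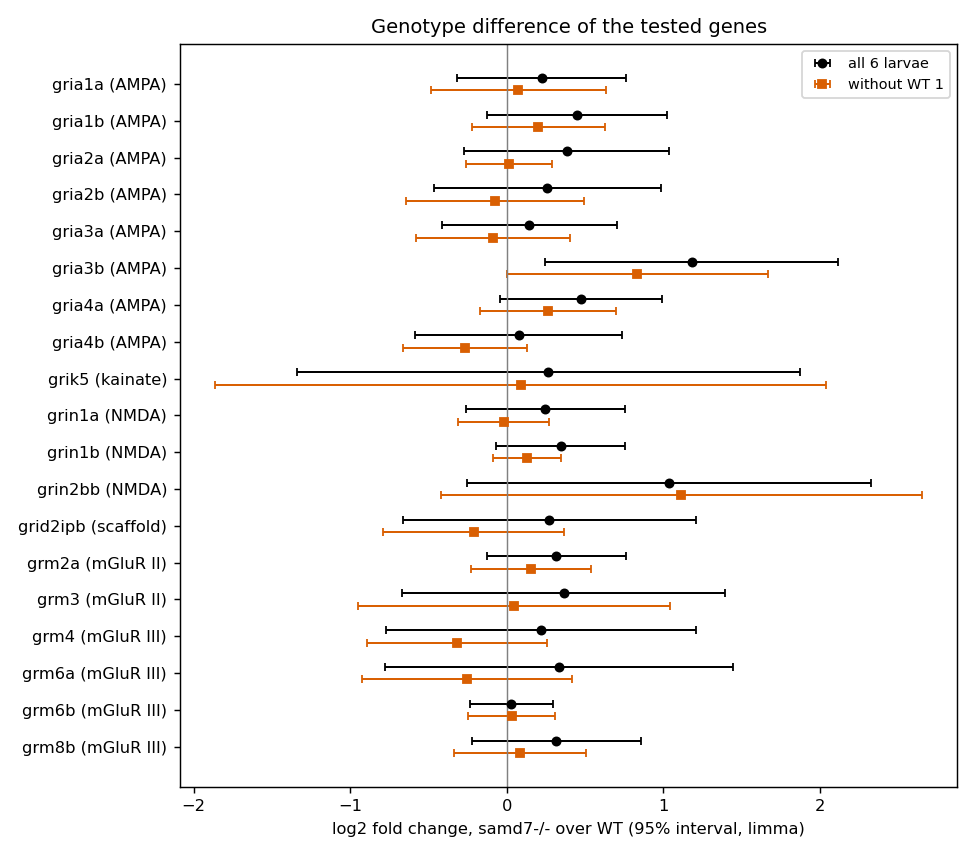
Log2 fold change, samd7-/- over WT, of 19 tested members with 95% intervals from limma, for all 6 larvae (black) and without WT 1 (orange). All 19 black points lie above 0, and 7 of the orange points lie below it.

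AMPA receptors, tetramers built from the products of gria1 to gria4, carry fast excitation, and in mammals the gria2 product limits their calcium entry. The gene with the smallest p was gria3b. WT 1, 2 and 3 held 17.2, 31.1 and 43.1 normalized counts of it, and samd7-/- 1, 2 and 3 held 49.2, 88.0 and 66.5. Every samd7-/- larva was above every WT larva, with the highest WT value close to the lowest samd7-/- value. The log2 fold change was 1.18 (SE 0.41, 95% interval 0.25 to 2.12, adjusted p = 0.663), and without WT 1 it was 0.83 (interval −0.00 to 1.67, adjusted p = 0.686). These counts are low, 18 to 87 reads a library.

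Its partner copy gria3a stood at 337, 441 and 676 in WT and 500, 578 and 469 in samd7-/-. Here WT held both the lowest and the highest larva, and the log2 fold change of 0.14 (interval −0.42 to 0.70) became −0.09 without WT 1.

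The gria4 copies likewise differed in how the genotypes lay. gria4a stood at 185, 330 and 245 in WT and 315, 380 and 333 in samd7-/- (log2 fold change 0.47, SE 0.23, interval −0.05 to 0.99, adjusted p = 0.791). The genotypes overlapped by 1 larva, since WT 2 lay above samd7-/- 1. gria4b stood at 183, 431 and 323 in WT and 319, 315 and 297 in samd7-/-. The WT larvae spanned the samd7-/- larvae on either side, and the log2 fold change of 0.08 (interval −0.58 to 0.74) was −0.27 without WT 1.

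gria1b stood at 92.7, 141 and 170 in WT and 170, 192 and 173 in samd7-/-. Its groups did not overlap, but WT 3 and samd7-/- 1 held 169.7 and 170.1 (log2 fold change 0.45, interval −0.13 to 1.02, adjusted p = 0.809). gria1a stood at 172, 275 and 200 in WT and 215, 311 and 225 in samd7-/-, groups that overlapped (log2 fold change 0.22, interval −0.32 to 0.76).

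gria2a, the AMPA gene with the highest mean count (not corrected for length), showed the place of WT 1 most plainly. It stood at 276 in WT 1 against 611 and 584 in WT 2 and 3, and at 626, 561 and 623 in samd7-/-. All larvae but WT 1 thus lay between 561 and 626. The log2 fold change was 0.38 with all larvae (interval −0.27 to 1.04, adjusted p = 0.843) and 0.01 without WT 1 (interval −0.26 to 0.29). gria2b stood at 132, 304 and 231 in WT and 222, 328 and 219 in samd7-/-, with a log2 fold change of 0.26 and of −0.08 without WT 1. The 8 AMPA genes summed to 1395, 2565 and 2472 normalized counts in the WT larvae and to 2416, 2754 and 2407 in the samd7-/- larvae. The ratio of the genotype means of this sum was 1.18, and 1.003 without WT 1.

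NMDA receptors need the GluN1 subunit, the product of grin1, and pair it with glutamate-binding GluN2 subunits such as that of grin2b. grin1b stood at 2482, 3851 and 3912 in WT and 4018, 4188 and 4532 in samd7-/-. The samd7-/- larvae were all above the WT larvae, and WT 2 and 3 lay close below samd7-/- 1. The log2 fold change was 0.34 (SE 0.18, interval −0.07 to 0.75, adjusted p = 0.791), and 0.13 without WT 1 (interval −0.09 to 0.35, adjusted p = 0.843).

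grin1a stood at 1305, 2314 and 2237 in WT and 2494, 1971 and 2297 in samd7-/-. Apart from WT 1 the genotypes were mixed, and the log2 fold change of 0.25 (interval −0.26 to 0.75, adjusted p = 0.857) became −0.02 without WT 1.

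grin2bb was near the limit of the test, with 9, 12 and 4 reads in WT and 18, 19 and 14 in samd7-/-. After normalization WT stood at 8.60, 13.3 and 3.67 and samd7-/- at 17.7, 19.2 and 13.7, groups that did not overlap by a margin under 1 read. This was 1 of the 3 tested members in which WT 1 was not the lowest. The log2 fold change was 1.04 (SE 0.56, interval −0.25 to 2.33, adjusted p = 0.798).

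The kainate gene grik5 encodes a high-affinity subunit that needs another kainate subunit to form a channel. It was close to the detection limit, at 7.65, 8.89 and 14.7 in WT and 10.8, 32.4 and 4.89 in samd7-/-. The samd7-/- group held both the lowest and the highest larva, and the interval of the log2 fold change, −1.34 to 1.87, was the widest among the members.

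The scaffold gene grid2ipb stood at 53.5, 156 and 140 in WT and 113, 166 and 111 in samd7-/-. WT 1 held 36.2% of the mean of WT 2 and 3, and the log2 fold change of 0.27 was −0.21 without that larva.

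Metabotropic glutamate receptors act through G proteins, and those of groups II and III lower cyclic AMP. Of group II, grm2a stood at 257, 403 and 323 in WT and 378, 448 and 382 in samd7-/-. The groups overlapped, since WT 2 lay above 2 of the samd7-/- larvae (log2 fold change 0.32, interval −0.13 to 0.76, adjusted p = 0.82). grm3 stood at 11.5, 27.8 and 19.3 in WT and 31.5, 22.2 and 19.6 in samd7-/- (log2 fold change 0.36, interval −0.67 to 1.40).

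Of group III, grm8b, a copy of a presynaptic receptor gene, stood at 185, 278 and 325 in WT and 373, 278 and 313 in samd7-/-, groups that overlapped (log2 fold change 0.32, interval −0.22 to 0.85). grm4, another presynaptic receptor, stood at 104, 333 and 305 in WT and 349, 209 and 230 in samd7-/-. WT 1 was at 32.6% of the mean of WT 2 and 3, and those larvae lay above samd7-/- 2 and 3. The log2 fold change was 0.22 (interval −0.77 to 1.21, adjusted p = 0.939), and −0.32 without WT 1 (interval −0.89 to 0.26).

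The grm6 copies encode mGluR6, the receptor of ON bipolar cells, and in zebrafish grm6b is known to be needed for the ON response of the larval retina. grm6b was the steadiest member among the WT larvae. It stood at 2073, 2096 and 2022 in WT, a coefficient of variation (CV) of 1.84%, and at 2343, 2109 and 1886 in samd7-/-, a CV of 10.8%. The samd7-/- larvae lay on either side of WT, and the log2 fold change was 0.03 (SE 0.12, interval −0.24 to 0.29, adjusted p = 0.972), which bounds any difference of the genotypes at 0.849 to 1.23-fold. It is also a member for which WT 1 was not low, at 101% of the mean of WT 2 and 3.

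grm6a behaved otherwise among the WT larvae. It stood at 38.2, 116 and 151 in WT, a CV of 56.8%, the largest of any member with a mean count of at least 50, and at 145, 110 and 85.1 in samd7-/-. The samd7-/- larvae lay within the WT range. The log2 fold change was 0.33 (SE 0.49, interval −0.78 to 1.45, adjusted p = 0.915), and −0.25 without WT 1. The WT 1 library held 40 reads of grm6a and 2168 of grm6b, against 104 and 1887 in WT 2 and 165 and 2204 in WT 3.

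No tested gene of the list of those that act with mGluR6 at the ON bipolar dendrite passed with limma. Of 21 symbols 17 were found, and gpr179, rgs7b, elfn1a and elfn1b were not. Of those found 16 were tested, and 0 rose and 0 fell with limma. At an unadjusted p under 0.05 there was 1, where 6.33% of all genes reached it. DESeq2 called 1 and edgeR 0, where they called 0.652% and 0.284% of all genes. The median log2 fold change of the 16 was 0.02. The TRPM1 channel gene trpm1a stood at 1036, 623 and 770 in WT and 877, 936 and 627 in samd7-/-, and trpm1b at 3131, 2426 and 3285 in WT and 2442, 4241 and 2502 in samd7-/-. Each had a log2 fold change of 0.02, with intervals of −0.49 to 0.53 and −0.50 to 0.53. gnao1b, which encodes the alpha subunit of the G protein that mGluR6 activates, had a log2 fold change of 0.12 (interval −0.15 to 0.38). gnb3b, the list's gene with the highest mean and in mammals a beta subunit gene of cones as well as ON bipolar cells, had one of 0.21 (interval −0.21 to 0.63).

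lrit3b is a copy of the gene for LRIT3, a membrane protein that in mice is made in photoreceptors and is needed for TRPM1 at the bipolar dendrite. It stood at 111, 71.1 and 71.6 in WT and 4.92, 15.2 and 19.6 in samd7-/-. The genotypes lay far apart, yet the gene did not pass with limma (log2 fold change −2.74, SE 0.51, adjusted p = 0.137). DESeq2 called it. The authors' deposited table, likewise from DESeq2 on these libraries, gives it a log2 fold change of −2.68 with an adjusted p of 6.31e-05. The other copy, lrit3a, stood at 3164, 3377 and 2915 in WT and 3085, 2574 and 2812 in samd7-/-, groups that overlapped (log2 fold change −0.16, interval −0.42 to 0.10). nyx, the gene for nyctalopin, an extracellular protein needed for TRPM1 at this synapse, stood at 704, 517 and 671 in WT and 795, 764 and 746 in samd7-/-. Its genotypes did not overlap, with samd7-/- higher (log2 fold change 0.30, interval −0.04 to 0.64, adjusted p = 0.791). lrit3b and nyx were the genes of this list whose p was smallest.

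**Figure D3:**
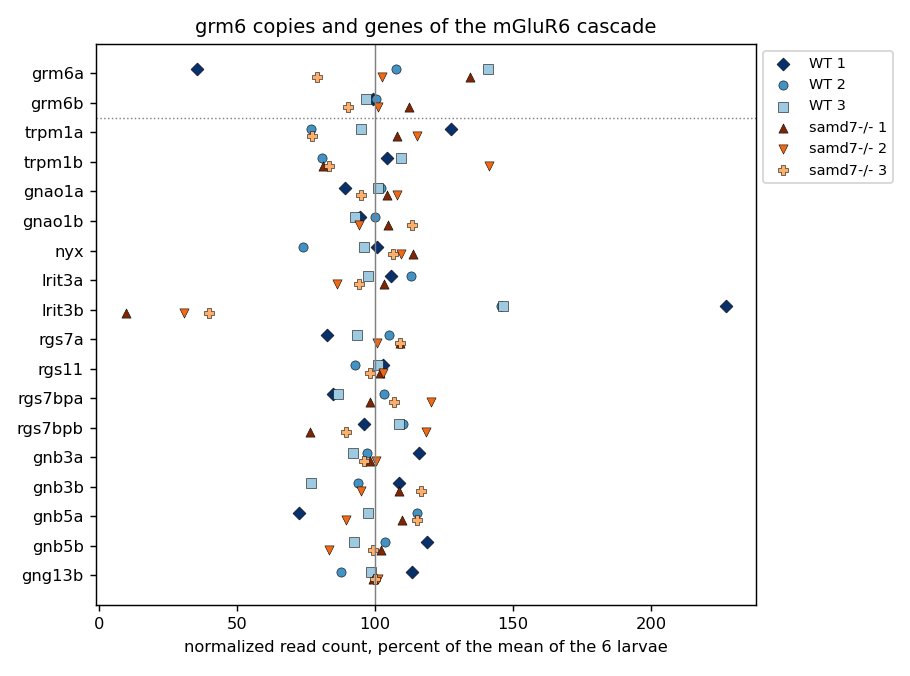
Normalized read counts of the grm6 copies (above the dotted line) and of the 16 tested genes of the mGluR6 cascade in each larva, as percent of the gene's mean over the 6 larvae. WT 1 is far below the other larvae for grm6a and not for grm6b, and lrit3b is the gene whose genotypes lie farthest apart.

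The balance between duplicate copies is free of gene length when it is compared between larvae. The log2 ratio of gria3a to gria3b was 4.22, 3.78 and 3.94 in WT and 3.32, 2.70 and 2.80 in samd7-/-, and the means differed by −1.04. This was the only one of the 6 pairs of copies whose genotypes did not overlap. How often the ratios of other duplicate genes separate the genotypes was not computed, and the ratio was not tested. It rests on 18 to 87 reads of gria3b a library. Of the 2 copies, gria3b had genotypes that did not overlap and gria3a had genotypes that did, and neither passed the test. The log2 ratio of grm6a to grm6b spanned 1.99 over the larvae, from −5.72 in WT 1 to −3.73 in WT 3, with the samd7-/- larvae between. The grin1a to grin1b ratio was the most even, with a span of 0.40. Copies can be similar in sequence, and how surely reads were split between them was not examined.

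**Figure D4:**
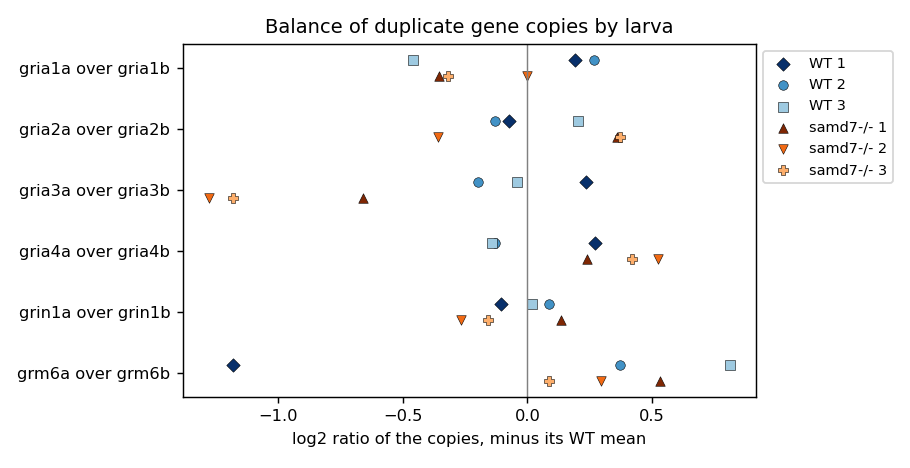
Log2 ratio of copy a to copy b in each larva, minus its mean over the 3 WT larvae, for the 6 pairs of copies. The samd7-/- larvae lie below all WT larvae for gria3a over gria3b, and WT 1 stands apart for grm6a over grm6b.

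The WT larvae varied more than the samd7-/- larvae for the receptor genes. The CV of WT was above that of samd7-/- for 18 of the 20 tested members, with medians of 35.9% and 15.9%; over all genes tested the medians were 17.6% and 12.3%, and WT had the larger CV for 65.0% of genes. The median member stood in WT 1 at 58.6% of the mean of WT 2 and 3, while the median of all genes tested was 99.7%. The intervals of 10 of the 20 members lay within a 2-fold change in either direction, as did those of 74.2% of all genes tested.

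Among markers of retinal neurons, the sums of the amacrine and ganglion lists separated the genotypes, and those of the bipolar and horizontal lists did not. Summed amacrine cell markers (13 of 15 symbols found) ranged from 32872 to 36721 in WT and from 39270 to 41448 in samd7-/-, and summed ganglion cell markers (13 of 14) from 16384 to 19937 and from 21492 to 22559. For both lists WT 1 was the lowest larva and the genotypes did not overlap, though limma, DESeq2 and edgeR called 0 of their genes. Of single genes, 6.66% separated the genotypes in this direction, but no such share was computed for sums of 13 genes. An unadjusted p under 0.05 in limma was given to 4 of the 13 amacrine and 3 of the 13 ganglion genes, and to 6.33% of all genes. The median log2 fold changes of these lists were 0.27 and 0.25, and 0.19 and 0.20 without WT 1, where the members' median went from 0.31 to 0.04. Summed bipolar cell markers (10 of 12) ranged from 48393 to 60320 in WT, where WT 1 was highest, and from 49257 to 59988 in samd7-/-. Summed horizontal cell markers (8 of 9) ranged from 9792 to 10022 and from 9546 to 9909. Most of this sum was 1 gene, calb2a, at 6943 to 7606 a larva. Of the 8 genes tested, 4 had a positive log2 fold change (median 0.01). Of these 8, cx52.9 alone had an unadjusted p under 0.05 in limma. It stood at 418, 327 and 328 in WT and 478, 531 and 513 in samd7-/-, without overlap (log2 fold change 0.51, adjusted p = 0.622). The genotypes overlapped for the sums of these lists. Limma and edgeR called 0 of their genes, and DESeq2 called 1, the bipolar marker pcp4l1. It stood at 785, 562 and 433 in WT and 1159, 1091 and 1162 in samd7-/-, without overlap (log2 fold change 0.98, SE 0.20, adjusted p = 0.227 with limma and 0.00584 with DESeq2). pcp4l1 lies on the chromosome of samd7, and a part of linked alleles in its difference was not tested.

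Genes listed as brain markers (22 of 24) summed to 4162 in WT 1, up to 4786 in WT, and to 4709 to 4988 in samd7-/-. Whether the retina makes them too was not examined, so their sum is no measure of tissue outside it. Muscle markers (15 of 15) were highest in WT 1, at 106129 against 39395 and 57235 in WT 2 and 3, and ranged from 28151 to 74931 in samd7-/-. Lens markers (16 of 18) ranged from 1975400 to 3355610 in WT, WT 1 being lowest, and from 1509860 to 2301780 in samd7-/-. Skin markers (15 of 15, with zgc:109868 at 0) ranged from 297319 to 338870 and from 262520 to 302270, and Muller glia markers (11 of 12) from 118678 to 176888 and from 117915 to 175323. Limma, DESeq2 and edgeR called 0 genes of these 5 lists. In the lens list, though, 0 of the 15 genes tested had a positive log2 fold change. Their median was −0.52, and −0.70 without WT 1. An unadjusted p under 0.05 in limma was given to 5 of these 15, and to 6.33% of all genes. The medians of the brain, muscle, skin and Muller glia lists were 0.17, −0.36, −0.20 and −0.05.

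Photoreceptor markers (14 of 14) summed to 1886860 to 2743500 in WT and 2468550 to 2801790 in samd7-/-. The genotypes overlapped for the sum, but single genes differed in both directions. An unadjusted p under 0.05 in limma was given to 7 of the 14, and to 6.33% of all genes. Of the 7, pde6c, opn1sw1 and opn1sw2 were higher in samd7-/- without overlap (log2 fold changes 0.62, 0.68 and 0.92, limma adjusted p 0.523, 0.747 and 0.303). The others were lower. Limma called 3 of the 14, all lower in samd7-/-, edgeR called 3 and DESeq2 5 (with pde6h lower and opn1sw2 higher beside those 3). They were gnat1 (rod transducin, log2 fold change −2.33, adjusted p = 0.0354), rho (rhodopsin, −2.24, adjusted p = 0.0362) and nr2e3 (a nuclear receptor that guides rod fate, −1.52, adjusted p = 0.00789). Without WT 1 the limma adjusted p-values were 0.196, 0.185 and 0.0599, with log2 fold changes of −2.25, −2.12 and −1.53. The part of tissue makeup in the receptor values was not tested.

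**Figure D5:**
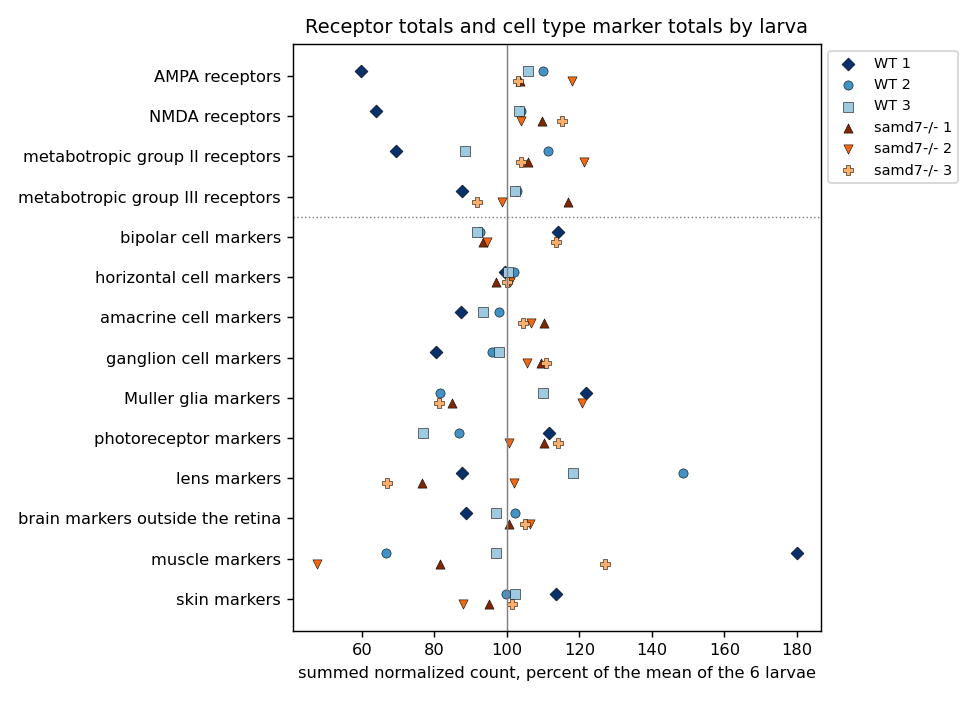
Summed normalized read counts of the 4 receptor families with more than 1 gene (above the dotted line) and of 10 cell type marker lists, in each larva, as percent of the mean of the 6 larvae. WT 1 is the lowest larva for all 4 receptor totals and for amacrine, ganglion and brain markers. It is the highest for muscle and skin markers and, by a small margin, for bipolar and Muller glia markers.

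Genes that supply and clear glutamate did not pass either. Of 27 release and uptake symbols 23 were found and 21 tested. In limma 0 rose, 0 fell and 0 had an unadjusted p under 0.05 (0 calls with edgeR and DESeq2). The median log2 fold change of those tested was 0.26, or 0.14 without WT 1. glula, the glutamine synthetase gene of Muller glia and the list's gene with the highest mean, ranged from 77180 to 81134 in WT and from 77344 to 91988 in samd7-/- (log2 fold change 0.06, interval −0.25 to 0.37). The glutamate transporter gene slc1a2a stood at 939, 1311 and 1526 in WT and 2146, 1353 and 1808 in samd7-/- (log2 fold change 0.49, SE 0.22, adjusted p = 0.779). The vesicular transporter gene slc17a7a, which loads synaptic vesicles, stood at 486, 783 and 773 in WT and 1532, 748 and 880 in samd7-/- (log2 fold change 0.59, interval −0.07 to 1.26). Its relative slc17a6b stood at 130, 327 and 287 in WT and 402, 323 and 318 in samd7-/- (log2 fold change 0.58, interval −0.17 to 1.34). The genotypes overlapped for each of these 4 genes.

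AMPA and kainate receptor auxiliary subunits steer channels to the synapse, and many slow their closing. Genes listed as such subunits or as their relatives were found for 9 of 28 symbols. Of the 7 tested 0 rose and 0 fell (limma gave 0 of them an unadjusted p under 0.05, and DESeq2 and edgeR called 0). cnih1, a relative of cnih2 and the list's gene with the highest mean, had a log2 fold change of −0.07 (interval −0.34 to 0.20). The TARP gene cacng2a stood at 395, 580 and 469 in WT and 601, 640 and 561 in samd7-/-, with an overlap of 1 larva (log2 fold change 0.34, interval −0.05 to 0.72). shisa9b stood at 19.1, 30.0 and 35.8 in WT and 45.2, 79.9 and 34.2 in samd7-/- (log2 fold change 0.84, interval −0.11 to 1.80). cnih2 stood at 16.3, 60.0 and 8.26 in WT and 37.4, 90.0 and 29.3 in samd7-/- (log2 fold change 1.15, interval −0.50 to 2.79). The genotypes overlapped for both.

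Of 47 postsynaptic scaffold and partner symbols 28 were found, and all of these were tested. Of the 28, 21 had a positive log2 fold change (median 0.19, and 0.12 without WT 1), as had 50.1% of all genes. The list summed to 29518 to 33083 in WT, WT 1 being lowest, and to 34255 to 34706 in samd7-/-, without overlap. Of single genes, 6.66% separated the genotypes in this direction, but no such share was computed for sums of 28 genes. With limma 0 rose and 0 fell, and 3 had an unadjusted p under 0.05, which 6.33% of all genes reached. DESeq2 called 1 and edgeR 0, where they called 0.652% and 0.284% of all genes. The 3 at an unadjusted p under 0.05 were nptx2b, nptx1l and nptxrb, which encode neuronal pentraxins, proteins that cluster AMPA receptors. nptx2b stood at 102, 147 and 99.99 in WT and 48.2, 37.4 and 56.7 in samd7-/-, so that the genotypes did not overlap (log2 fold change −1.27, SE 0.28, adjusted p = 0.275). It is the gene DESeq2 called, and the authors' deposited table, likewise from DESeq2, gives it an adjusted p of 0.0242. nptx1l stood at 1620, 1765 and 1843 in WT and 1392, 1383 and 1389 in samd7-/- (log2 fold change −0.33, SE 0.11, adjusted p = 0.649). The pentraxin receptor gene nptxrb lay the other way, at 289, 334 and 298 in WT and 444, 424 and 384 in samd7-/- (log2 fold change 0.44, SE 0.15, adjusted p = 0.65). The other pentraxin gene found, nptx2a, stood at 33.5, 20.0 and 43.1 in WT and 42.3, 22.2 and 46.0 in samd7-/-, groups that overlapped (log2 fold change 0.19, interval −0.80 to 1.18, adjusted p = 0.95). The pentraxins were singled out after their values were seen, and the family was not tested. nsfa, whose product handles vesicle fusion and binds AMPA receptors, was the list's gene with the highest mean and so the largest part of its sum. It stood at 12518, 13100 and 11687 in WT and 14218, 13584 and 13616 in samd7-/-, without overlap (log2 fold change 0.15, interval −0.08 to 0.39).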

How the data were processed

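Libraries were made from 10 ng of total RNA with the SMARTer Ultra Low kit, per the labels' protocols, and sequenced as pairs of 150 bp without strand information. The submitters' processing notes name DESeq2 1.34.0 under R 4.1.3, HTSeq 0.9.1, STAR 2.7.2b, Trim Galore 0.6.1 and build danRer10. The annotation behind the counting was not given in the sources used here. Each deposited value is a normalized signal: reads of a gene over the library's size factor, as the numbers show, since 100% are whole multiples, within 0.001, of 1 read. For each gene the authors deposited their log2 fold change too, with its adjusted p-value.

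The main test was limma 3.58.1 (R 4.3.3), limma-trend on log2(value + 1), 2-sided, without covariates, on genes with at least 10 in at least 3 libraries, with Benjamini-Hochberg adjustment over all genes tested and a threshold of 0.05. This scale understates fold changes of low genes. Intervals are 95%. DESeq2 1.42.0 and edgeR 4.0.16 (quasi-likelihood) on recovered reads were alternatives. The DESeq2 fit nearly repeats the authors' deposited table, so these 2 are not independent. For samd7-/- 2 recovery rests on the multiples alone. No libraries agreed within sampling noise (chi-square per degree of freedom 43.1 to 191). The code was tested on simulated data.

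The members and the 14 lists (4 pathway, 10 marker) were chosen with earlier results of these data known. Counts per gene and larva are given for members that passed, the 4 smallest p in each direction and the highest mean per family. They are also given for the grm6 copies, the 2 largest CVs and nearly every other member. From pathway lists they are given for up to 3 smallest p. Of the pathway genes with the highest mean, nsfa has counts per larva, glula a range, and gnb3b and cnih1 a fold change only. trpm1a, trpm1b, gnao1b, nptx2a and the cell type marker genes were named after their values were seen. Lists match by symbol or RefSeq synonym. No sequence or gene length was used here. The values of 2 members are not reported here.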

Additional observations from a re-analysis of the deposited data

How the results depend on the processing

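No member passed in any of the 17 alternatives (each library left out, replicate block, no filter, a minimum of 50, pseudocounts of 0.5 and 10, quantile normalization, TMM factors, robust moderation, DESeq2, edgeR, the authors' deposited table). With 1 library left out, log2 fold changes ran from −0.075 to 0.525 for gria2b, −0.087 to 0.413 for gria3a, −0.265 to 0.352 for gria4b, −0.211 to 0.549 for grid2ipb, −0.020 to 0.393 for grin1a, −0.316 to 0.518 for grm4 and −0.255 to 0.724 for grm6a, each lowest, and negative, without WT 1. grm4 (−0.0037) and grm6b (−0.049, range to 0.107) turned negative without samd7-/- 1. gria4b was also negative with DESeq2 (−0.0067), edgeR (−0.0060) and in the authors' deposited table (−0.0067). The calls over all genes, 36, were 6 to 27 with 1 library left out and 90 with DESeq2 and in the authors' deposited table. DESeq2 and that table each called 1 gene of the mGluR6 cascade (lrit3b) and 1 of the scaffold list (nptx2b), where limma called 0. Members without overlap numbered 4, and 3 with quantile normalization or TMM factors.

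The main test treated the replicate numbers as labels only. The deviations of same-numbered larvae from their group means correlated at 0.03, 0.18 and −0.00. Those of differently numbered larvae correlated at −0.16 to 0.14. With 3 larvae a group these values cannot settle whether the numbers mark pairs. With the replicate block, 33 genes and 0 members passed, and 0 genes of the pathway lists. grik5 had 5 to 32 reads a library and grin2bb 4 to 19, so their intervals are wide.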

Other observations

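The group II receptor gene grm2b stands in the table under an older name, gb:kf234084, which the symbol rule does not match. WT held 128, 228 and 126 normalized counts and samd7-/- 211, 215 and 211 (log2 fold change 0.46, SE 0.25, adjusted p = 0.799 with limma). The 3 samd7-/- larvae were nearly equal and lay within the WT range, and WT 1 was close to WT 3, not apart from it as for most members.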
